A study of Homo sapiens with 8 samples.

Results

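The genes described here are 9 genes in which variants cause or modify Parkinson disease and whose proteins work on endosomes, synaptic vesicles or lysosomes: LRRK2, ATP13A2, VPS35, VPS13C, DNAJC6, DNAJC13, SYNJ1, SCARB2 and TMEM175. They were taken by symbol from a table of 58395 genes, each symbol matched 1 row, and all 9 passed the filter on low counts that left 19999 genes for testing. The samples were iCell DopaNeurons, a commercial product in which induced pluripotent stem cells of human origin have been turned into dopaminergic neurons, and their RNA was sequenced in bulk. The first group, GDNF, held 4 libraries from neurons grown for 4 days on a coating of nanostructures that mimic glial cell line-derived neurotrophic factor. The second, CT, held 4 libraries on the same day. The labels do not spell out CT. It is taken to be the scrambled version of the mimic, since no other comparator is named. Every library carries the same labelled concentration, so no dose is compared, and the shared protocol text names the mimic coating for CT as well. The design text names 3 biological replicates per condition where 4 libraries are labelled. No label ties a library to a culture of its own, so each p-value reflects no more than the spread among these libraries, part of which may be technical.

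Material taken up at the cell surface, including synaptic vesicle membrane, passes through early endosomes and is then recycled or sent on to lysosomes. Dopaminergic neurons carry very large axons with many release sites, and they are the cells lost in Parkinson disease. DNAJC6 (auxilin) and SYNJ1 (synaptojanin) strip the clathrin coat from newly formed vesicles. VPS35 is the core of retromer, the complex that returns cargo from endosomes, and DNAJC13 is a J-domain protein of the same sorting membranes. LRRK2 is a kinase whose substrates are Rab GTPases. At the lysosome, SCARB2 (LIMP-2) is a membrane protein that carries an enzyme to the lysosome, ATP13A2 exports polyamines, TMEM175 is a cation channel, and VPS13C is a bridge that carries lipid between membranes.

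The transcripts of these genes differ in base composition, a feature that the deviations of single libraries followed. The transcripts of ATP13A2 and TMEM175 are rich in G and C, at 64.3% and 63.5%, and those of the other 7 genes are poor in them, at 37.1% to 42.8%. To show this, 1 coding stretch of 90 bases is printed for each of 4 genes, chosen as the stretch within a single exon whose GC content lies closest to that of the whole transcript, with G and C in capitals (GENCODE transcripts, GRCh38, 5′ to 3′).
VPS13C, chr15:62010490-62010579, minus strand: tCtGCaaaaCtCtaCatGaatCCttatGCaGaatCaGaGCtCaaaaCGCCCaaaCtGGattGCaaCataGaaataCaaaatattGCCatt
DNAJC6, chr1:65364685-65364774, plus strand: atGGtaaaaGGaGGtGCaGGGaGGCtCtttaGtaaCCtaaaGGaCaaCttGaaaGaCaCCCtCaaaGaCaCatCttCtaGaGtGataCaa
TMEM175, chr4:953190-953279, plus strand: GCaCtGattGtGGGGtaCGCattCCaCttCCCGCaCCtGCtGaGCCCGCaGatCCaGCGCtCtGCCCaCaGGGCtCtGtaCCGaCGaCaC
ATP13A2, chr1:17005386-17005475, minus strand: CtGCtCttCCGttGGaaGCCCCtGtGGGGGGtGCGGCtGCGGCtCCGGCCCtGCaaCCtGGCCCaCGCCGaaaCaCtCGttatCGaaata
DNAJC6 is shown because VPS35 and DNAJC6 have nearly the same GC content, 41.8% and 42.3%, while their values in 1 library were not alike. Among 11814 genes of at least 5 CPM with a transcript sequence, 95.2% had a lower GC content than ATP13A2 and 93.8% a lower one than TMEM175. VPS13C stood at the other end, with 4.85% of genes below it, and its transcript of 14579 bases was longer than that of 98.9% of genes.

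TMEM175 starts next to GAK, the broadly expressed relative of DNAJC6, on the opposite strand of chromosome 4. RefSeq (GRCh38.p14) starts GAK at 932316 and TMEM175 at 932460, so a single stretch of 143 bases lies between them, shown here on the plus strand with each CG pair in capitals.
TMEM175 and GAK, chr4:932317-932459: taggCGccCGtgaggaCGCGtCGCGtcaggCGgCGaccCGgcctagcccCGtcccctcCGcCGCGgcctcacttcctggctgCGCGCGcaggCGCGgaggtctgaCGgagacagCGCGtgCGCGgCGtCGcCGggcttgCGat
This stretch is 76.9% G and C and holds 27 CG pairs. GENCODE places the outer ends of the genes closer together, GAK at 932373 and TMEM175 at 932387, so by that annotation part of the stretch lies within each gene. The promoters of all 9 genes were also searched on both strands for CACGTG and for its longer form with GT before it and AC after it, the palindrome of the lysosomal CLEAR element, which holds CACGTG. None of the 9 genes had either in the 250 bases before and 50 after a start, against 7.26% of 35116 promoters for CACGTG and 0.353% for the longer form. CACATG, a related E-box, was found in 3 of the 9 (DNAJC13, SCARB2 and VPS35), against 11.1% of promoters. The former counts genes and the latter promoters, and DNAJC6 and SYNJ1 each have further promoters, so these are not like for like. A match is a description and not a site, and no match says only that these letters are not in these windows.

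None of the 9 genes passed the test between GDNF and CT. Of the 9, 0 passed a false discovery rate of 0.05 in edgeR, as did 0% of the 19999 genes tested, and 0 had an unadjusted p under 0.05, against 0.880% of all genes (176 genes, with 0.300% higher and 0.580% lower in GDNF). Their unadjusted p-values ran from 0.474 for SYNJ1 to 0.754 for ATP13A2, with an adjusted p of 0.9999 for each. DESeq2 and limma-voom with quality weights likewise called 0 genes, the 9 included, and 0 of the 9 had an unadjusted p under 0.05 in either tool. In 0 of the 9 genes were the groups free of overlap, against 0.930% of all genes and 0.406% of those of at least 5 CPM. The log2 fold change of GDNF over CT was above 0 for 7 genes and below 0 for 2, with a median of 0.10, whereas 47.6% of all genes were above 0 and their median was -0.0098. Without CT replicate 2, a library that stood apart from the other 7, 3 genes were above 0 and 6 below, with a median of -0.012. For 6 of the 9 the 95% confidence interval lay within 1.5-fold either way, against 52.5% of all genes and 79.3% of those of at least 5 CPM. LRRK2, VPS35 and VPS13C had wider intervals. This count was 4 with a replicate block or without GDNF replicate 4, CT replicate 1 or CT replicate 4, was 8 without CT replicate 2, and was 9 in limma-voom. The share of all genes was counted only for the main edgeR fit.

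Total counts were 29532090 to 34559240 in GDNF and 28698283 to 31692788 in CT, and 3 counts correspond to 0.0856 to 0.104 CPM (CPM being counts scaled to the TMM-adjusted library size), the level that a count of 0 still allows. Of the 10 dopaminergic markers all were detected, with summed levels of 1670 to 2023 CPM in GDNF and 1604 to 2385 CPM in CT. The dopamine transporter SLC6A3, at 0.664 CPM in GDNF and 0.431 CPM in CT, was near the detection limit. The 8 neuronal markers summed to 7867 to 9093 CPM in GDNF and 6376 to 9143 CPM in CT. The 8 microglial markers, of interest because microglia also express LRRK2, summed to 0.840 to 2.14 CPM in GDNF and 1.17 to 2.40 CPM in CT, only CSF1R passed the filter, and TYROBP was at 0 in every library. Astrocyte markers summed to 254 to 321 CPM in GDNF and 155 to 336 CPM in CT, nearly all of it SLC1A2, which neurons can also express. Fibroblast markers lay at 39.8 to 53.4 CPM in GDNF and 32.1 to 55.7 CPM in CT, nearly all of it COL1A1 and COL1A2. The fibroblast marker LUM averaged 0.693 CPM in GDNF and 0.604 CPM in CT, and DCN and PDGFRB lay lower. Cycling cell markers lay at 4.66 to 5.37 CPM in GDNF and 3.53 to 4.88 CPM in CT. Progenitor markers lay at 448 to 608 CPM in GDNF and 467 to 573 CPM in CT, nearly all of it VIM and NES. The progenitor marker PAX6 averaged 0.0863 CPM in GDNF and 0.145 CPM in CT. Oligodendrocyte markers lay at 47.9 to 55.1 CPM in GDNF and 49.2 to 53.8 CPM in CT. Nearly all of this was MBP, at 48.4 CPM in GDNF and 47.9 CPM in CT. PDGFRA averaged 0.524 CPM in GDNF and 0.487 CPM in CT, and OLIG1, OLIG2 and SOX10 lay lower. Endothelial markers lay at 0.134 to 0.343 CPM in GDNF and 0.0950 to 0.277 CPM in CT. The pluripotency markers reached at most 0.0858 CPM in GDNF and 0.166 CPM in CT. None of these markers passed the test, and their part in the values below was not tested. In bulk RNA, fewer cells of a type and less RNA per cell cannot be told apart.

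**Figure D1:**
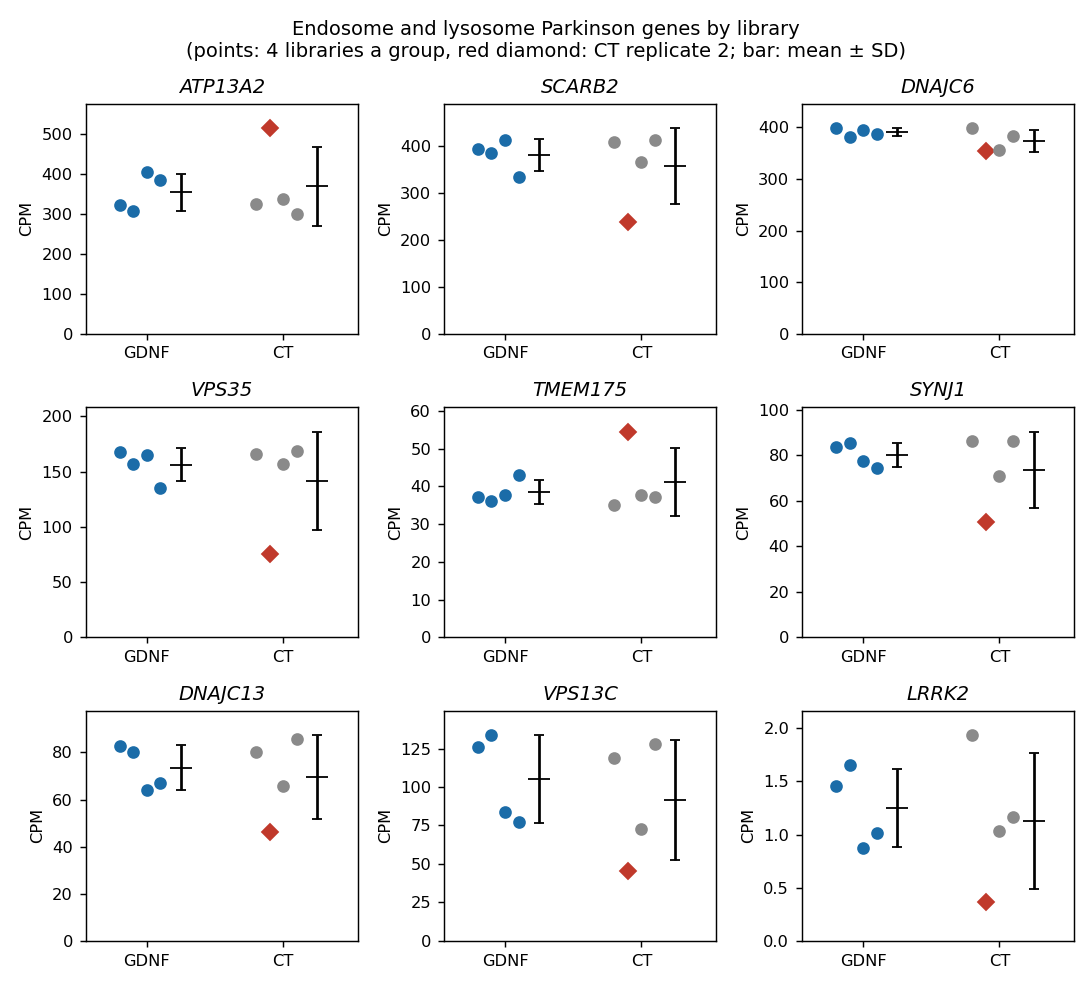
CPM (y axis, linear, from 0) of the 9 genes in each of the 4 GDNF libraries (blue) and 4 CT libraries (grey, CT replicate 2 as a red diamond), with the mean and SD beside the points. CT replicate 2 is the highest library for ATP13A2 and TMEM175 and the lowest for the other 7 genes, and the groups overlap in every panel.

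Among the genes of coat removal, DNAJC6 varied least between libraries of all 9 genes. DNAJC6 (chromosome 1, 65248219 to 65415869) had 398, 381, 395 and 387 CPM in GDNF replicates 1 to 4, against 398, 355, 355 and 383 CPM in CT replicates 1 to 4. The libraries of both groups fell within a narrow band, with a coefficient of variation of 1.94% in GDNF and 5.71% in CT. Its log2 fold change was 0.07 (95% confidence interval -0.16 to 0.29), the narrowest interval of the 9. SYNJ1 (chromosome 21, 32628759 to 32728048) had 83.5, 85.6, 77.5 and 74.2 CPM in GDNF, against 86.2, 50.9, 71.0 and 86.1 CPM in CT. CT replicate 2 was far below every other library, and the remaining 7 lay between 71.0 and 86.2 CPM. Its log2 fold change was 0.12 (-0.25 to 0.49).

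The sorting genes of the endosome were both lowest in CT replicate 2. VPS35 (chromosome 16, 46656132 to 46689518) had 168, 157, 165 and 136 CPM in GDNF, against 166, 75.2, 157 and 168 CPM in CT. Here CT replicate 2 lay far below 7 libraries that all held at least 136 CPM. The log2 fold change was 0.14 (-0.35 to 0.64) with all libraries and -0.06 (-0.25 to 0.13) without CT replicate 2. DNAJC13 (chromosome 3, 132417526 to 132539032) had 82.8, 80.3, 64.0 and 67.2 CPM in GDNF, against 80.3, 46.0, 65.9 and 85.7 CPM in CT. GDNF replicates 1 and 2 and CT replicates 1 and 4 formed the upper values, so each group held high and low libraries. The log2 fold change was 0.08 (-0.34 to 0.50).

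LRRK2 messenger RNA was scarce. LRRK2 (chromosome 12, 40196744 to 40369285) had 51, 58, 26 and 30 reads in GDNF and 61, 11, 30 and 37 reads in CT, which is 1.46, 1.66, 0.874 and 1.01 CPM in GDNF and 1.93, 0.366, 1.04 and 1.17 CPM in CT. Every library was above the level that a count of 0 allows, and CT replicate 1 held the highest and CT replicate 2 the lowest value of all 8. Its log2 fold change was 0.16 with an interval of -0.75 to 1.06, so neither a 1.5-fold rise nor a 1.5-fold fall could be told from no change in these libraries. Only 22.3% of the tested genes had a lower mean level.

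Of the lysosomal genes, SCARB2 and ATP13A2 were abundant, and CT replicate 2 lay at opposite ends of their values. SCARB2 (chromosome 4, 76158733 to 76234536) had 395, 387, 414 and 334 CPM in GDNF, against 410, 239.5, 367 and 413 CPM in CT. ATP13A2 (chromosome 1, 16985958 to 17011928) had 323, 307, 404 and 384 CPM in GDNF, against 324, 515, 338 and 299 CPM in CT. CT replicate 2 was the lowest library for SCARB2 and the highest for ATP13A2, whereas GDNF replicate 3 was high for both. The log2 fold changes were 0.10 (-0.28 to 0.47) for SCARB2 and -0.06 (-0.45 to 0.34) for ATP13A2. Without CT replicate 2 that of ATP13A2 was 0.15 (-0.07 to 0.37). An antisense gene, AL049569.1, covers 3.60% of the exonic bases of ATP13A2, and reads from the pair cannot be told apart where counting ignores strand.

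TMEM175 (chromosome 4, 932387 to 958656) had 37.2, 36.2, 37.7 and 43.0 CPM in GDNF, against 35.1, 54.4, 37.7 and 37.2 CPM in CT. Apart from CT replicate 2, its libraries stayed between 35.1 and 43.0 CPM. Its log2 fold change was -0.09 (-0.44 to 0.25). VPS13C (chromosome 15, 61852389 to 62060473) had 126, 133, 84.0 and 77.3 CPM in GDNF, against 119, 45.6, 72.9 and 128 CPM in CT. The values fell into a higher set in GDNF replicates 1 and 2 and CT replicates 1 and 4, and a lower set in the other libraries of both groups, so the spread lay within the groups and not between them. Its log2 fold change was 0.20 (-0.47 to 0.87).

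Per kilobase of transcript, which allows levels to be compared between genes, ATP13A2 stood highest, at a mean of 90.8 CPM per kb over the 8 libraries, followed by SCARB2 at 77.2 and DNAJC6 at 64.5. ATP13A2 and SCARB2 were not set apart, since ATP13A2 exceeded SCARB2 in 4 of 8 libraries. The ranges of SCARB2 and DNAJC6 overlapped, but SCARB2 was above DNAJC6 in 7 of 8 libraries, all but CT replicate 2. VPS35 and TMEM175, at 21.9 and 20.2 CPM per kb, also overlapped and lay below DNAJC6 in every library. SYNJ1 followed at 10.8, DNAJC13 at 9.25 and VPS13C at 6.75 CPM per kb. Across libraries the ranges of these 3 overlapped, but within each of the 8 libraries SYNJ1 was above DNAJC13 and DNAJC13 above VPS13C. LRRK2 was last by a wide margin, at 0.130 CPM per kb. With the length of all annotated exons in place of the longest coding transcript, SCARB2 fell to 19.1 CPM per kb and to rank 3. DNAJC6, at 54.9, rose to rank 2, and the ranks of the other genes did not change.

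The deviation of CT replicate 2 from the other 7 libraries followed GC content. On the log2 scale (CPM + 0.5) it was 0.61 above the mean of the other 7 libraries for ATP13A2 and 0.53 above it for TMEM175. The deviation was -1.17 for VPS13C, -1.08 for VPS35 and -1.03 for LRRK2, and it lay between -0.69 and -0.65 for DNAJC13, SCARB2 and SYNJ1. Across the 9 genes, Spearman's correlation of this deviation with GC content was 0.833, and across 11814 genes of at least 5 CPM it was 0.903; both describe the same library, and genes are not independent replicates. DNAJC6 stood off this line, at -0.12, where genes with a GC content of 40% to 44% had a median of -0.60 and an interquartile range of -0.85 to -0.37. VPS35, in the same GC range, lay below that interquartile range.

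**Figure D2:**
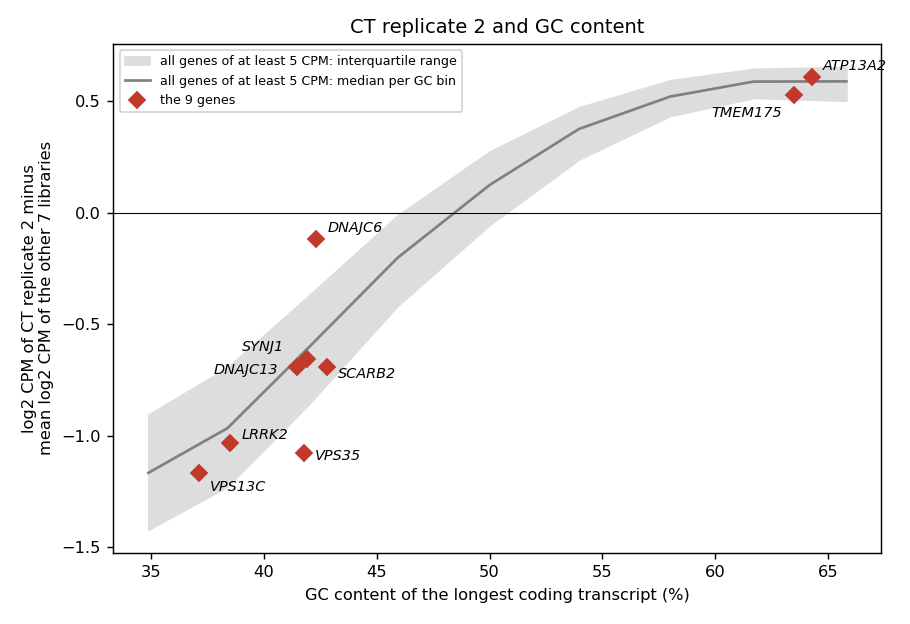
Deviation of CT replicate 2 from the mean of the other 7 libraries (y axis, log2 CPM) against the GC content of the longest coding transcript (x axis, %), for the 9 genes (red diamonds) and for all genes of at least 5 CPM (grey line, median per GC bin, with the interquartile range shaded). ATP13A2 and TMEM175 lie at the GC-rich end with positive values, DNAJC6 lies above the shaded band at -0.12 and VPS35 below it at -1.08.

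The trend was not limited to that library. GDNF replicate 4 also followed GC content upwards, with a correlation of 0.743 over all genes and 0.717 over the 9. GDNF replicates 1 and 2 and CT replicates 1 and 4 followed it downwards, at -0.82, -0.78, -0.81 and -0.86 over all genes and -0.98, -0.97, -0.93 and -0.80 over the 9. In GDNF replicate 3 and CT replicate 3 the correlation over all genes was near 0, at -0.013 and -0.0048, while over the 9 genes it was 0.633 and 0.333. Transcript length gave correlations over the 9 genes of nearly the same size, at 0.95, 0.97 and 0.92 in GDNF replicates 1 and 2 and CT replicate 1, and -0.75 in CT replicate 2. Over all genes those with length were weaker, at -0.23 in CT replicate 2, except in CT replicate 3 and GDNF replicate 3. Length gave -0.42 in CT replicate 3 and 0.048 in GDNF replicate 3, the latter near 0 as with GC content. The 2 features cannot be told apart over the 9 genes alone, since the longest transcript, VPS13C, has the lowest GC content and the shortest, TMEM175, one of the highest. The cause of the trend was not tested.

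**Figure D3:**
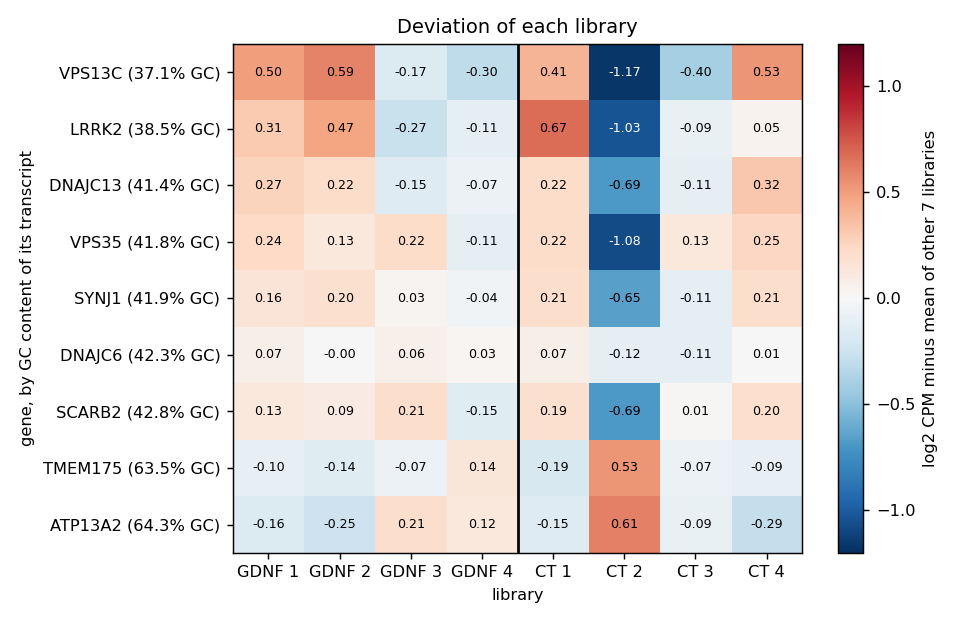
Each cell is the log2 CPM of a gene (rows, ordered by GC content) in a library (columns, GDNF left of the line and CT right of it) minus the mean of the other 7 libraries, in red where higher and blue where lower. The column of CT replicate 2 turns from -1.17 for VPS13C at the top to 0.61 for ATP13A2 at the bottom.

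After offsets for GC content and transcript length, 8 of the 9 genes had intervals within 1.5-fold, the exception being LRRK2. The share of all genes with such intervals was not counted with the offsets. The coefficient of variation in CT was then 4.02% for ATP13A2, 5.32% for SYNJ1, 7.09% for DNAJC13 and 13.3% for VPS13C. Without the offsets it was 26.7%, 22.7%, 25.5% and 42.6%. For SCARB2, TMEM175, VPS35 and LRRK2 it was 8.47%, 8.86%, 18.1% and 39.8%, against 22.8%, 21.8%, 31.4% and 57.0% without the offsets. For DNAJC6 it was larger with the offsets, at 15.4%, than without them, at 5.71%, and CT replicate 2 then stood at 476 CPM, above all other libraries. For VPS35, CT replicate 2 remained the lowest library, at 104 CPM. The offsets were fitted to the deviations of these same libraries, so a smaller spread is partly built in. With the offsets the log2 fold changes were 0.03 (-0.07 to 0.14) for ATP13A2, 0.04 (-0.08 to 0.15) for SYNJ1, -0.0091 (-0.15 to 0.14) for DNAJC13 and 0.11 (-0.09 to 0.31) for VPS13C. For SCARB2 and TMEM175 they were 0.03 (-0.09 to 0.15) and 0.02 (-0.14 to 0.18), for VPS35 0.08 (-0.14 to 0.29), for DNAJC6 -0.05 (-0.31 to 0.20) and for LRRK2 0.08 (-0.52 to 0.69).

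**Figure D4:**
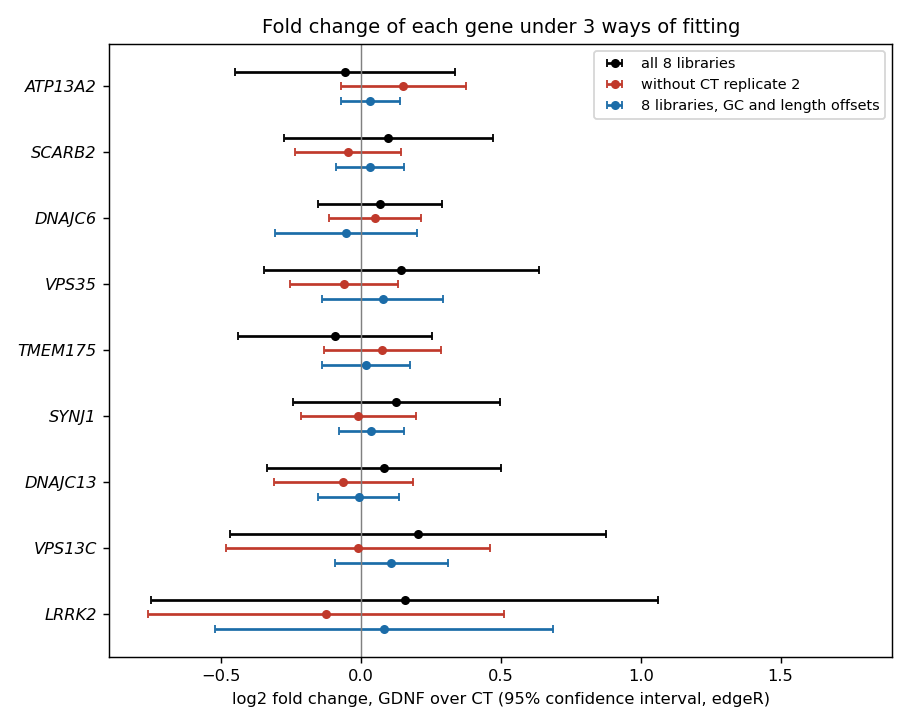
Log2 fold change of GDNF over CT in edgeR (points) with 95% confidence intervals (bars), for all 8 libraries (black), without CT replicate 2 (red) and with offsets for GC content and length (blue). Every interval includes 0, and the widest belong to LRRK2, from -0.75 to 1.06 with all libraries.

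Members of the same families were set beside the 9 genes. In retromer, the cargo-binding trimer of VPS35, VPS29 and a VPS26 subunit, VPS26B was the more abundant VPS26 gene, at 79.4 ± 7.81 CPM per kb in GDNF and 83.1 ± 13.4 in CT (SD, n = 4 each). VPS26A stood at 13.8 ± 2.45 CPM per kb in GDNF and 12.7 ± 6.03 in CT. VPS29, at 25.5 ± 2.64 in GDNF and 24.7 ± 6.92 in CT, lay close to VPS35, at 23.0 ± 2.16 in GDNF and 20.8 ± 6.55 in CT. With the length of all annotated exons, VPS29 lay below VPS35, at 12.1 against 16.1 in GDNF and 11.7 against 14.5 in CT. By that length VPS26B remained above VPS26A, at 45.2 against 12.5 in GDNF and 47.3 against 11.5 in CT. VPS35L, the VPS35 relative of the retriever complex, stood at 18.5 CPM per kb in GDNF and 19.0 CPM per kb in CT, and KNOP1 lies antisense to 17.2% of its exonic length. In CT replicate 2, VPS26A was at 12.6 CPM and VPS26B at 368 CPM, the lowest and the highest value of each over 8 libraries, and the GC contents of their transcripts are 40.9% and 56.3%.

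**Figure D5:**
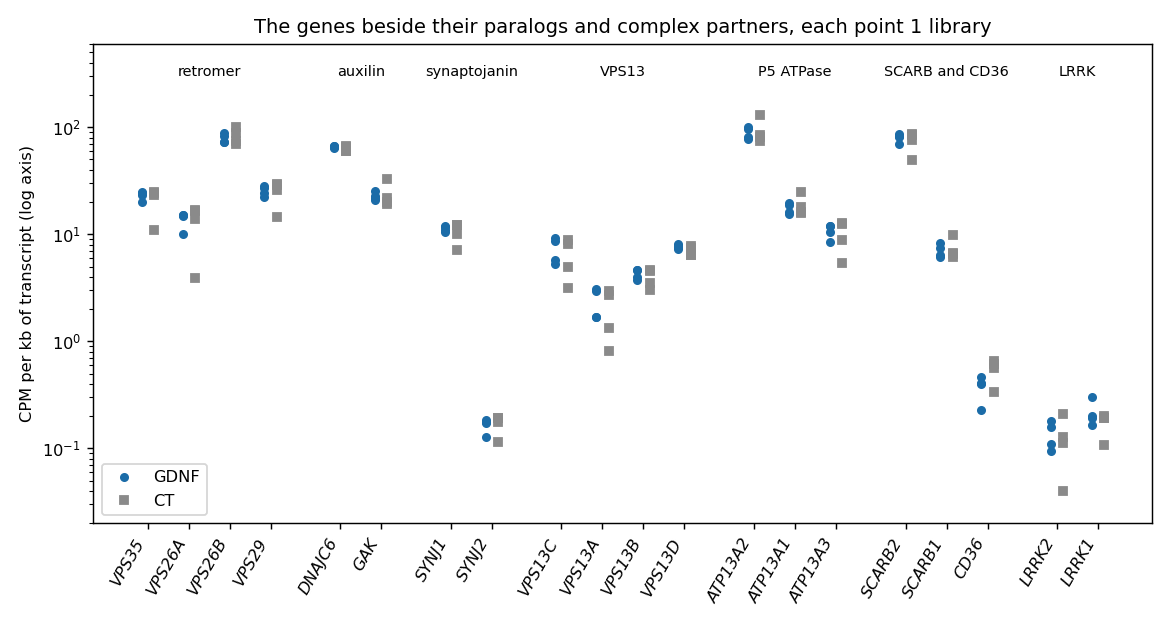
CPM per kb of transcript (y axis, log scale) of the 9 genes other than DNAJC13 and TMEM175 beside their paralogs and retromer partners (x axis), with 1 blue circle per GDNF library and 1 grey square per CT library. SYNJ2, CD36, LRRK1 and LRRK2 lie lowest, below 1 CPM per kb in every library, and the groups overlap for every gene.

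The share of each gene and its paralog was compared within libraries, where depth cancels, for 6 pairs. Reads were scaled by the longest coding transcript. The shares were not recomputed with all annotated exons, which span 6954 bases for DNAJC6 and 15155 for GAK. The size of a share depends on this choice, whereas the difference in log2 ratio between the groups does not. DNAJC6 made up 74.4% ± 1.83 of the length-scaled reads of DNAJC6 and GAK in GDNF and 73.0% ± 5.67 in CT (SD, n = 4 each). SYNJ1 made up 98.6% ± 0.178 of the SYNJ1 and SYNJ2 reads in GDNF and 98.3% ± 0.608 in CT. For SCARB2 beside SCARB1, the scavenger receptor for lipoproteins, the share was 91.8% ± 1.72 in GDNF and 90.4% ± 4.64 in CT. ATP13A2 took 89.1% ± 2.60 beside ATP13A3, a polyamine transporter of the same class, in GDNF and 89.7% ± 4.75 in CT. VPS13C took 75.6% ± 1.17 beside VPS13A in GDNF and 77.0% ± 2.86 in CT. LRRK2 and LRRK1 were both barely expressed, with the share of LRRK2 at 39.2% ± 11.5 in GDNF and 39.8% ± 15.9 in CT. Two-sided exact permutation tests of the 6 log2 ratios gave p-values of 0.343 to 1 (adjusted p of 1 for each), where the smallest p that 4 against 4 libraries allow is 0.0286.

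On the scale of the log2 ratio, which has no ceiling, VPS13C over VPS13A had the smallest SD, 0.092 in GDNF and 0.23 in CT, and LRRK2 over LRRK1 the widest, 0.72 in GDNF and 1.09 in CT. Over single libraries the DNAJC6 share ran from 72.0% to 76.4% in GDNF and from 64.6% to 77.0% in CT, with the lowest value in CT replicate 2. The LRRK2 share ran from 26.7% to 49.3% in GDNF and from 17.3% to 51.1% in CT, and again CT replicate 2 was lowest. The 2 paralogs of a pair can differ in GC content, as LRRK1 at 57.2% and LRRK2 at 38.5% do.

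The wider pathway was read from 7 lists holding 156 genes, 154 of them measured. In none of the lists did a gene pass the test (0 of 154), 2 genes had an unadjusted p under 0.05, against 0.880% of all genes, and 0 had groups free of overlap, against 0.930% of all genes. Medians of the lists lay between -0.050 and 0.12, against -0.0098 for all genes tested.

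Among retromer, sorting nexin and WASH genes 12 of 23 were higher and 11 lower in GDNF, with a median of 0.00043. RAB7A, the late endosomal GTPase that recruits retromer, had the highest level per length, at 146 CPM per kb in GDNF and 152 in CT. For SNX6, a sorting nexin that tubulates endosomes, the log2 fold change was 0.18 (-0.39 to 0.75), and for SNX27, which links retromer to cargo of the cell surface, it was 0.12 (-0.15 to 0.39). Without CT replicate 2 only 5 genes of this list were higher and 18 lower. WASHC1, at 2.72 CPM in GDNF and 4.08 CPM in CT, was the gene of this list with an unadjusted p under 0.05. Its highest library was CT replicate 2, at 5.56 CPM, and without that library 0 genes of the list had such a p. It was chosen after its values were seen, and it belongs to a family of near-identical copies, so its count is uncertain.

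Of the LRRK2 substrate Rabs and partners 16 of 28 were higher and 12 lower, the median being 0.04. RAB10, a main LRRK2 substrate, averaged 175 ± 22.5 CPM in GDNF and 162 ± 46.3 CPM in CT. RAB8A averaged 22.2 CPM in GDNF and 22.9 CPM in CT, RAB12 41.3 CPM in GDNF and 40.5 CPM in CT, and RAB29, which recruits LRRK2 to membranes, 8.98 CPM in GDNF and 8.65 CPM in CT. An antisense gene covers 37.8% of the exons of RAB8A, so its level is uncertain. Per length, RAB10 stood at 49.5 CPM per kb in GDNF and 45.9 in CT, where the kinase itself stood at 0.137 in GDNF and 0.123 in CT. YWHAQ, an adaptor of a family that binds phosphorylated LRRK2, was highest per length, at 355 CPM per kb in GDNF and 339 CPM per kb in CT. Among genes of this list of at least 5 CPM, the vesicle GTPases RAB3C and RAB3B had the log2 fold changes furthest from 0, 0.17 (-0.38 to 0.71) and 0.16 (-0.13 to 0.46).

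Among 30 genes of clathrin coats, dynamins and uncoating 15 were higher and 15 lower, the median being 0.00057, and with the GC and length offsets 20 were higher and 10 lower. HSPA8, the chaperone that auxilin recruits to clathrin, averaged 1102 ± 56.1 CPM in GDNF and 1079 ± 119 CPM in CT and was the highest of the list per length. GAK averaged 101 ± 8.99 CPM in GDNF and 105 ± 28.0 CPM in CT, SYNJ2 1.22 CPM in GDNF and 1.25 CPM in CT, and SH3GL2, the endophilin that recruits synaptojanin, 34.8 CPM in GDNF and 34.5 CPM in CT. Furthest from 0 were the log2 fold changes of the dynamin DNM3, 0.17 (-0.28 to 0.63), and the clathrin light chain CLTB, -0.17 (-0.56 to 0.23).

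Bridge-like lipid transfer genes and their partners were the list with the most uneven split, 11 of 12 higher, with a median of 0.12. Without CT replicate 2 the split was 7 higher and 5 lower, with a median of 0.0078, and with the GC and length offsets 10 and 2, with a median of 0.04. VPS13A, the gene of chorea-acanthocytosis, had 0.27 (-0.56 to 1.10), at 36.2 ± 11.6 CPM in GDNF and 30.0 ± 16.2 CPM in CT. XK, its membrane partner, had 0.27 (-0.18 to 0.71), VPS13B 0.11 (-0.25 to 0.46) and VPS13D 0.14 (-0.12 to 0.39). Per length, VPS13D (7.74 CPM per kb in GDNF and 7.04 in CT) lay close to VPS13C (7.22 in GDNF and 6.27 in CT). VPS13B (4.25 in GDNF and 3.94 in CT) and VPS13A (2.36 in GDNF and 1.96 in CT) lay lower. VAPA, the endoplasmic reticulum anchor of VPS13 proteins, was the highest of the list, at 22.6 CPM per kb in GDNF and 20.6 CPM per kb in CT.

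Of the ATPase and lysosomal ion channel genes 7 of 16 were higher and 9 lower, the median being -0.050. ATP13A1, the endoplasmic reticulum member of the ATPase family, averaged 67.2 CPM in GDNF and 72.4 CPM in CT and ATP13A3 82.6 CPM in GDNF and 76.3 CPM in CT. LAMTOR1, an anchor of the lysosomal Ragulator complex, was highest per length, at 48.4 CPM per kb in GDNF and 52.5 CPM per kb in CT, and its log2 fold change was -0.12 (-0.43 to 0.19). CLCN7, the lysosomal chloride exchanger, had -0.12 (-0.51 to 0.28), and antisense genes cover 16.1% of its exons. ATP13A5, at 0.565 CPM in GDNF and 0.241 CPM in CT, had an unadjusted p under 0.05 and was chosen after its values were seen. It was near the detection limit, and its groups overlapped.

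Genes of the lysosomal membrane and of lysosomal lipid breakdown counted 8 of 23 higher and 15 lower, with a median of -0.049. With the GC and length offsets the split was 12 higher and 11 lower, and the median was 0.0034. GRN, progranulin, had a change of -0.17 (-0.59 to 0.24) on the log2 scale. PSAP, the precursor of the saposins, was highest per length, at 354 CPM per kb in GDNF and 384 CPM per kb in CT. SCARB1 averaged 23.6 CPM in GDNF and 24.4 CPM in CT, and CD36, another relative of SCARB2, 0.891 CPM in GDNF and 1.28 CPM in CT.

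Early endosome and recycling genes counted 13 of 23 higher and 10 lower, with a median of 0.03, and 8 higher and 15 lower without CT replicate 2. TSG101, of the sorting complex for ubiquitinated cargo, was highest per length, at 43.6 CPM per kb in GDNF and 45.5 CPM per kb in CT. The FYVE-domain genes ZFYVE16 and ZFYVE9 had the log2 fold changes furthest from 0, 0.21 (-0.68 to 1.10) and 0.19 (-0.24 to 0.61).

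The genes whose levels followed each of the 9 most closely over the 8 libraries were looked for among 11812 genes of at least 5 CPM, as a description. For VPS35 it was KPNA4 (Pearson's r of 0.999), for SCARB2 RLIM (0.999), for ATP13A2 PITPNM1 (0.998), for DNAJC13 USP24 (0.998) and for SYNJ1 XPO4 (0.998). TMEM175 was closest to KCTD15 (0.995) and VPS13C to DGKH (0.995). LRRK2 and DNAJC6 had less close matches, EXOSC9 (0.978) and ADGRG2 (0.968). These values share CT replicate 2 and the trend with GC content: 1602 genes (13.6%) reached an r above 0.95 with VPS35, against 7 genes (0.0593%) with DNAJC6. Among the 9 themselves, VPS35 and SCARB2 had an r of 0.984, VPS13C and DNAJC13 0.975, and VPS35 and TMEM175 -0.97.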

How the data were processed

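The deposited table held raw read counts, whole numbers for each Ensembl gene and library. The submitters' processing notes name GRCh38 and the tools FastQC, cutadapt, STAR, HTSeq and DESeq2 without an order; the sources used here do not give versions, annotation release, strand setting or the handling of multi-mapping reads. A filter on low counts (filterByExpr of edgeR, at least 10 counts, total of at least 15) retained 99.9% of the counts. The main test was edgeR 4.0.16 (R 4.3.3): a quasi-likelihood fit over all retained genes with TMM scaling and group as its single term, adjusted by Benjamini-Hochberg at 0.05. Tests are two-sided, intervals are 95%, and limits set by 3 counts cover counting error only. Alternatives used DESeq2 1.42.0, limma 3.58.1, other scalings, no filter, a replicate block, offsets from splines on GC content and log2 length (5 degrees of freedom each, from genes of at least 5 CPM), and each library left out. The code was tested on simulated counts. GENCODE 29 gave lengths, GC content and overlaps; 98.7% of the 58275 genes found in it had identical positions. Exon overlap touched ATP13A2 (3.60%, antisense), VPS13C (0.974%, antisense) and DNAJC6 (0.777%, same strand), and VPS35 has 1 pseudogene named after it. No pair of libraries agreed within sampling noise. The rule for named genes took, per list, the gene highest per length and the 2 with the largest changes of at least 5 CPM, a fixed set of paralogs and partners, and for each of the 9 genes its closest match. The genes and lists were chosen with earlier results of these data known. Some items covered by that rule are not reported here.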

Additional observations from a re-analysis of the deposited data

Results flagged for a closer look

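Among 30 sets of 4 values (the 9 genes and the 6 paralog ratios, in GDNF and in CT), 2 had a lone library well away from its group. About 1 in 20 such sets would by chance. Both were CT replicate 2. For VPS35 it held 75.2 CPM and the rest of CT 157 to 168 CPM. For TMEM175 it held 54.4 CPM and the rest of CT 35.1 to 37.7 CPM.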

How the results depend on the processing

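Across the 17 settings tried, 0 genes were called in each, 112 to 1024 genes had an unadjusted p under 0.05, and the adjusted p of the 9 genes stayed between 0.925 and 1.0. Other scalings moved the median of all genes by less than 0.02, and 7 of the 9 genes were higher and 2 lower in GDNF under every setting except limma-voom with quality weights (5 and 4) and without CT replicate 2 (3 and 6). With each library left out in turn, log2 fold changes ranged from -0.12 to 0.55 for LRRK2, -0.15 to 0.15 for ATP13A2, -0.060 to 0.24 for VPS35, -0.012 to 0.41 for VPS13C, 0.044 to 0.10 for DNAJC6, -0.064 to 0.20 for DNAJC13, -0.010 to 0.21 for SYNJ1, -0.048 to 0.17 for SCARB2 and -0.16 to 0.076 for TMEM175. The log2 ratio to the paralog was likewise compared as the GDNF mean minus the CT mean. This difference ranged from -0.50 to 0.29 for LRRK2, -0.11 to 0.19 for DNAJC6 and -0.028 to 0.43 for SYNJ1. It ranged from -0.22 to -0.055 for VPS13C, -0.45 to 0.22 for ATP13A2 and -0.17 to 0.32 for SCARB2. Signs also turned with limma-voom, to 0.050 for ATP13A2, -0.022 for VPS35, -0.015 for DNAJC13, -0.0021 for SYNJ1, -0.045 for SCARB2 and 0.029 for TMEM175. With the GC and length offsets they turned to 0.033 for ATP13A2, -0.054 for DNAJC6, -0.0091 for DNAJC13 and 0.018 for TMEM175. With the same offsets, GDNF minus CT differences of the log2 ratios turned to -0.19 (LRRK2 over LRRK1) and -0.087 (DNAJC6 over GAK). Those of ATP13A2 over ATP13A3 and SCARB2 over SCARB1 turned to 0.019 and -0.0088. For the lists, both the offsets and the omission of CT replicate 2 were alternatives chosen after seeing the data. Without CT replicate 2, the genes higher in GDNF numbered 5 in the retromer list, 7 in the bridge-like list and 8 in the early endosome list. The cause was not tested.

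Libraries with the same replicate number did not all deviate together (correlations of 0.706, -0.637, 0.320 and -0.822), and not every library correlated best with its own number. The deviations of most libraries also followed GC content, so these correlations cannot decide whether the numbers pair the libraries. A replicate block gave 0 called genes and 112 with an unadjusted p under 0.05, and 7 of the 9 genes higher. The offsets with the replicate block gave 0 called genes, with 0.031 for ATP13A2, -0.039 for DNAJC6, -0.011 for DNAJC13 and 0.018 for TMEM175. LRRK2 had the fewest reads of the 9, 11 to 61 per library, and how far counting error sets its spread was not tested.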
